A study of Mus musculus with 4 samples.

Results

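The comparison described here set day 3 against day 2 after muscle injury, the interval in which activated muscle stem cells are known to begin to leave the cell cycle and build contractile protein. It uses 2 of the 4 arrays of the study, chosen by their labelled time after injury: 1 array of day 3 and 1 of day 2. Both samples were myogenic cells taken without culture from the hind limbs of 8- to 12-week-old C57BL/6 mice that had received cardiotoxin, a snake venom protein that lyses muscle fibres and spares the stem cells beneath their basal lamina. The day 3 cells were collected 3 days and the day 2 cells 2 days after that injection, and no further treatment or engineered allele is labelled. The antibody SM/C-2.6, which binds satellite cells, is named in the labels; the remaining gates of the purification and the number and sex of the animals in each sample are not given in the sources at hand. Of 12394 genes named on the array, 6991 were measured, that is, above a floor of 43.0 signal units on at least 1 of both days. A gene was called higher or lower when its signal differed by at least 2-fold. With 1 array a day there is no test, and all differences are those between both arrays.

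Satellite cells are the stem cells of skeletal muscle. After injury they divide as myoblasts under the transcription factors Myf5 and MyoD, then switch on myogenin, stop dividing, fuse into multinucleate myotubes and assemble sarcomeres. Embryonic isoforms of several contractile proteins are known to appear first, and adult isoforms replace them later.

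The labelled cell type was checked against 9 markers of myogenic cells (Pax7, Myf5, Myod1, Myog, Itga7, Vcam1, Cdh15, Ncam1 and Des). All 9 were above the floor on day 3 and 8 on day 2, where Pax7 lay under it. No gene of the neutrophil, lymphocyte and erythroid lists was above the floor on either day, but only 3 of 8 erythroid genes were named on the array. Other lists did hold genes above the floor. For macrophages these numbered 10 on day 3 and 4 on day 2, and for fibroblasts 14 and 10. The mural and smooth muscle list had 8 and 4, the Schwann cell list 3 and 2, and the endothelial list 2 and 0. On day 3, 49.5% of probe sets were above the floor, against 45.0% on day 2. The median log2 ratio of the measured genes was 0.06, and 44.6% of them lay below zero. The 18 hybridisation control probe sets, which report RNA spiked in at equal amounts, had a median scaled ratio of 1.03 (day 3 over day 2). The poly-A controls, bacterial transcripts meant to be added to the RNA before labelling, differed: all 13 such probe sets above the floor on both days were lower on day 3, with a median scaled ratio of 0.580 to day 2, while the same ratio was 0.903 for day 5 and 0.578 for day 14. The sample records of days 3 and 14 also share a wording that differs from that of days 2 and 5. Whether the arrays were made in separate runs is not given, and a run and the day cannot be told apart; the part of either in the results was not tested. As a check of RNA length, 3' over 5' probe set signal for Gapdh was 1.88 (day 3) against 2.17 (day 2), and for Actb 2.20 (day 3) against 1.80 (day 2). Probe sets for the same gene scattered around their gene's mean with an SD of 0.36 on the log2 scale (2069 genes), which covers neither animals nor labelling.

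Of the 6991 measured genes, 6.69% (468) were called higher on day 3 and 1.80% (126) lower, so that 8.50% were called in either direction. Calls of higher genes made up 78.8% of all calls, and 52.6% with the arrays as deposited, before scaling, where the median gene above the floor on both days stood at a log2 ratio of -0.16 in place of 0.01. Where a gene had a further probe set, that probe set gave a second reading on the same arrays. Of 152 higher genes with such a reading, 64 (42.1%) passed 2-fold again and 146 had the same sign, against 5.09% of all second probe sets being higher. Among 40 lower genes, 7 (17.5%) passed again and 38 had the same sign, against 2.75% of all second probe sets being lower. No second reading passed 2-fold in the other direction. Second readings thus passed more often for higher than for lower genes. They share the arrays and the scaling with the first readings, so they cannot decide which class is larger. Of the lower genes 12 passed 3-fold, and of the higher ones 159. In bulk RNA, fewer cells of a type and less RNA per cell cannot be told apart.

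**Figure D1:**
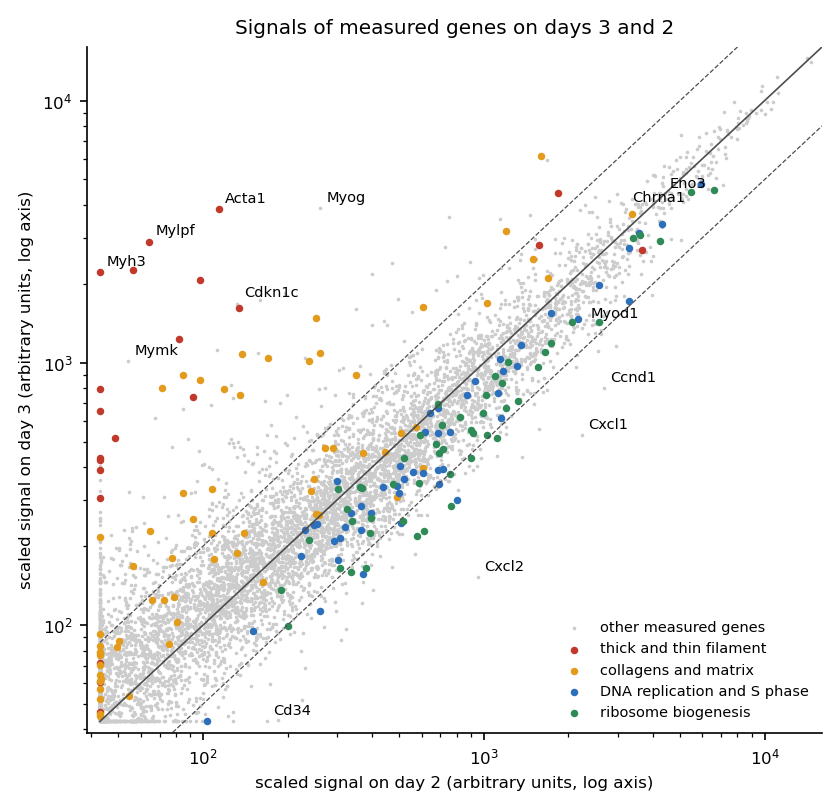
Scaled signal of each measured gene on day 3 (vertical, log axis) against day 2 (horizontal, log axis), with values under the floor drawn at it; the solid line marks equal signal and the dashed lines a 2-fold difference. Most thick and thin filament genes lie above the upper dashed line up to Acta1 at 3858 against 114, while replication and ribosome biogenesis genes run just below the solid line.

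The thick filament is built of myosin. Of 7 measured genes, 6 were higher, none was lower, and the log2 ratios had a median of 3.31. Mylpf, the fast skeletal regulatory light chain, read 2896 on day 3, against 64.5 on day 2. Myl1, the alkali light chain of fast fibres, read 305 on day 3 but was below the floor on day 2 (at least 7.10-fold higher), and Mybph, a myosin-binding protein, read 432 on day 3 and also lay under it on day 2 (at least 10.1-fold). Myl4, the light chain of embryonic muscle and atrium, read 426 on day 3 but was below the floor on day 2 (at least 9.92-fold), while its second probe set gave a log2 ratio of only 0.06. Among the heavy chains the embryonic Myh3 read 2210.1 and Myh1, an adult fast chain, 389.7 on day 3, and both lay under the floor on day 2 (at least 9.07-fold higher for Myh1). Heavy chain genes are near-identical copies whose probes can cross-react. A further 10 genes of the list, among them the neonatal Myh8, the adult fast Myh2 and Myh4 and the slow Myh7, were under the floor on both days, so the day 3 array held embryonic and not neonatal, slow or most adult fast heavy chain signal above the floor.

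The thin filament is built of actin, tropomyosin and the calcium-sensing troponins. Of 14 measured genes, 10 were higher with none lower and a list median (log2) of 3.50. Acta1, skeletal alpha-actin, read 3858 on day 3, against 114 on day 2, and Actc1, cardiac alpha-actin, which developing skeletal muscle also uses, 2251 against 56.4. Each troponin subunit was higher in both its slow and its fast form. Troponin C, the calcium sensor, read 655 on day 3 and under the floor on day 2 in the slow form Tnnc1, and 1237 against 82.1 in the fast form Tnnc2. Troponin I, the inhibitory subunit, read 797 on day 3 and under the floor on day 2 in the slow form Tnni1, and 742 against 91.8 in the fast form Tnni2. For troponin T, which holds the complex to tropomyosin, the slow Tnnt1 read 2071 on day 3, against 97.5 on day 2, the cardiac and embryonic Tnnt2 1617 against 135 and the fast Tnnt3 516 against 48.4. For each subunit the fold, or its lower bound, of the slow form was above that of the fast form: at least 15.3-fold against 15.1-fold for troponin C, at least 18.6-fold against 8.09-fold for troponin I and 21.3-fold against 10.7-fold for troponin T. The difference between the forms was not tested, and for troponin C it was small. Tropomyosins, which are not confined to muscle, stood apart from the troponins. Tpm1 read 4460.2 on day 3, against 1839 on day 2 (2.43-fold, with probe sets from -0.44 to 1.28 on the log2 scale), Tpm2 2823 against 1566 (probe sets from 0.85 to 2.55) and Tpm3 2699 against 3654. Their probe sets disagreed on the size and, for Tpm1 and Tpm3, on the sign of the difference.

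**Figure D2:**
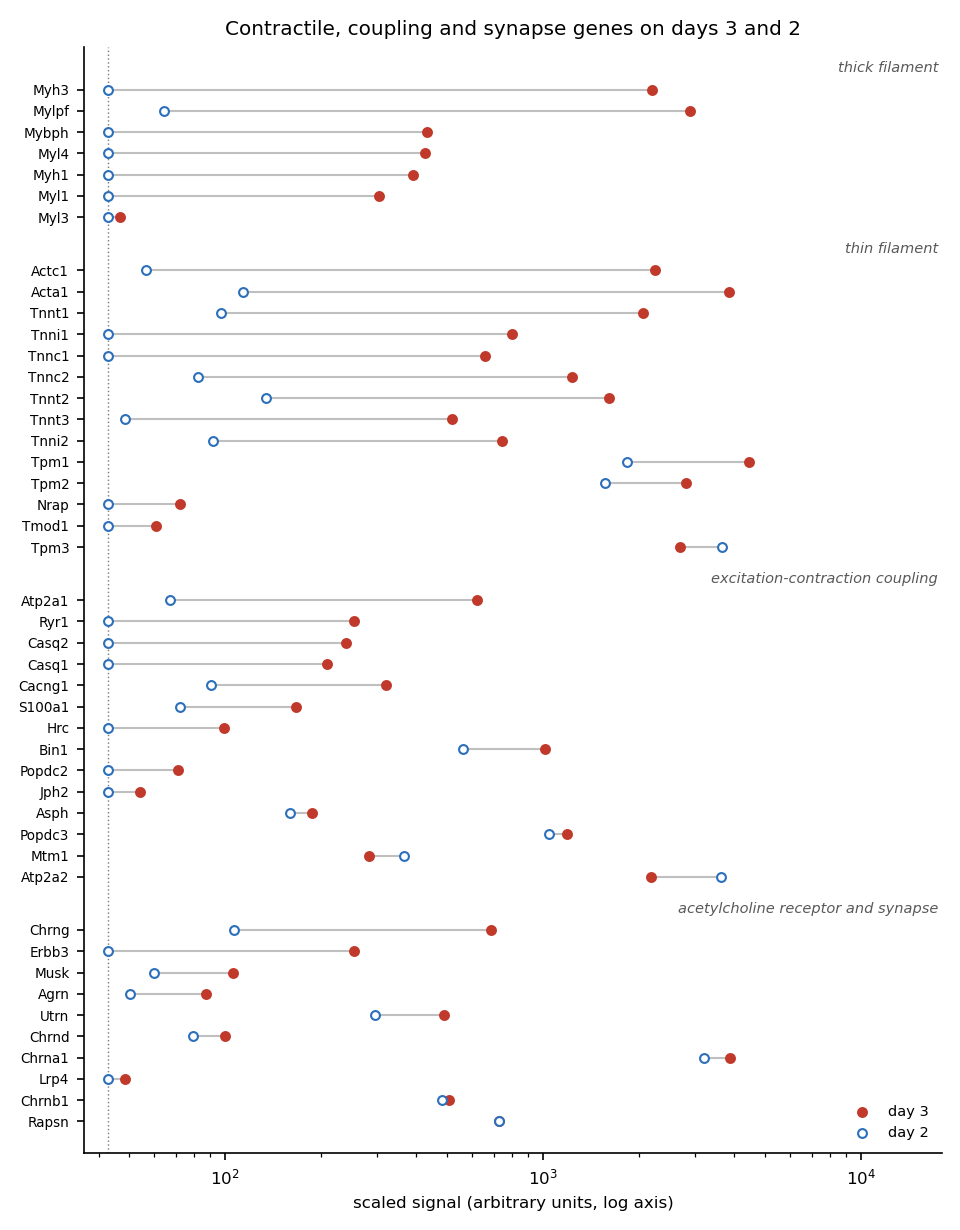
Scaled signal (horizontal, log axis) of every measured gene of the thick filament, thin filament, coupling and synapse lists on day 3 (filled red) and day 2 (open blue), sorted by log2 ratio within each list; the dotted line is the floor, and 1 array stands behind each point. Most filament genes sit at or near the floor on day 2 and far right of it on day 3, whereas Chrna1, Chrnb1 and Rapsn have day 3 and day 2 signals side by side.

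The Z disc anchors the thin filaments and titin spans the sarcomere from there to the M band. Here 6 of 15 measured genes were higher with none lower and a list median (log2) of 0.77 (13 higher at a floor of 20 and 12 without a floor). Ttn, titin, read 1093 on day 3, against 156 on day 2 (6.99-fold higher, second probe set 3.23 on the log2 scale). Pdlim3, a Z disc protein with a PDZ and a LIM domain, read 359 on day 3 but was below the floor on day 2 (at least 8.35-fold). Actn3, the alpha-actinin of fast fibres, read 2429.8 against 891, and Flnc, muscle filamin, 577 against 228. Cryab, a small heat shock protein of the Z disc, read 1042 against 230.3. Myom2 of the M band (75.8 on day 3), Ldb3 (73.2) and Actn2 (44.3) were barely above the floor on day 3 and under it on day 2, and Tcap, Myoz1, Myot and Myom1 were under it on both days. Titin and a few Z disc proteins were therefore far above the floor while most other components of the mature disc and M band were close to it or below. Chaperones and turnover factors of the sarcomere had 6 of 8 measured genes higher with none lower (median 1.10), and 3 as deposited. The small heat shock protein Hspb2 read 230.5 on day 3, against 52.3 on day 2, and Hspb8, a partner of the chaperone Bag3, 792 against 259.7. Hspb3 read 125 on day 3 but was below the floor on day 2 (at least 2.91-fold, a call that ended at a floor of 100). Fbxo32, the muscle ubiquitin ligase atrogin-1, read 93.8 against 45.4, so close to 2-fold that the call ended with the arrays as deposited, with quantile normalisation and without a floor, and it was not measured at a floor of 100.

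Excitation-contraction coupling turns a membrane potential into calcium release. Of 14 measured genes, 7 were higher with none lower (median 1.03). The calcium pump of fast fibres, Atp2a1, read 618 on day 3, against 67.4 on day 2 (9.18-fold higher). Ryr1, the calcium release channel, read 255 on day 3 but was below the floor on day 2 (at least 5.95-fold), and the calcium stores Casq2 and Casq1, the calsequestrins, read 240.2 and 210.0 on day 3 and likewise lay under it on day 2 (at least 5.59-fold and at least 4.89-fold); the Casq2 probe set is shared between transcripts. Cacng1, the gamma subunit of the voltage sensor, read 319.8 against 90.3. The pore of that sensor, Cacna1s, and Jph1, Trdn, Cacnb1 and Pvalb were under the floor on both days. Atp2a2, the pump of slow fibres and of most other cells, read 2183 on day 3, against 3622 on day 2 by its brightest probe set, but its probe sets ran from -0.73 to 1.26 on the log2 scale, so that no direction can be given for it.

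The acetylcholine receptor receives the signal of the motor nerve. Only 2 of 10 measured genes of the receptor and synapse list were higher and none was lower (median 0.53). Chrng, the gamma subunit of the embryonic receptor, read 688 on day 3, against 107 on day 2 (6.43-fold higher, second probe set 0.99 on the log2 scale). Erbb3, a neuregulin receptor, read 255 on day 3 but was below the floor on day 2 (at least 5.94-fold). The other parts of the embryonic receptor were above the floor on both days and were not called: Chrna1, the alpha subunit that binds acetylcholine, read 3874 on day 3, against 3211 on day 2, Chrnb1 507 against 482 and Chrnd 99.7 against 79.3. Rapsn, which clusters the receptor, read 729.9 against 726. Chrne, which replaces the gamma subunit in the adult receptor, was under the floor on both days. The gamma subunit thus differed between the days while the other receptor subunits and Rapsn did not reach 2-fold.

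Several promoters are printed here to set Chrng, which was called, beside Chrna1, which was not and whose promoter holds the same E box, with light chain, troponin and actin genes that were called. The sequences are the 160 bases before the start of each gene, from RefSeq (assembly GRCm38.p6), given 5' to 3' on the strand of the gene. Capitals mark the E box CAGCTG, a hexamer that MyoD and myogenin are known to bind, which reads the same on both strands and is 1 form of the wider CANNTG.
Chrng: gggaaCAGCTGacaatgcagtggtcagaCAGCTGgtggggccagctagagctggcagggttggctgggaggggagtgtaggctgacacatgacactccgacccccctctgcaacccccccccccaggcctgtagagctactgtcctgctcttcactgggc
Chrna1: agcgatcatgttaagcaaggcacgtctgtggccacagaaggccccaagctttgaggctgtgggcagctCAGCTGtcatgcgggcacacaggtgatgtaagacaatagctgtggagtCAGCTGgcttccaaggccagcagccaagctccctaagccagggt
Mylpf: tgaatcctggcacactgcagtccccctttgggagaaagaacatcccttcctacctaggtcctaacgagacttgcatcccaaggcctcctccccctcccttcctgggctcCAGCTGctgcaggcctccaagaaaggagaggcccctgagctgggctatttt
Tnni1: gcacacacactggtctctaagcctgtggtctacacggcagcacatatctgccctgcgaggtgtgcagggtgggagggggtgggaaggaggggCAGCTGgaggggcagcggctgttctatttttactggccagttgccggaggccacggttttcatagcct
These lie at chr1:87205651-87205810 (+ strand), chr2:73580339-73580498 (- strand), chr7:127211448-127211607 (+ strand) and chr1:135799261-135799420 (+ strand). Within 250 bases before the start, CAGCTG was found in 18 of 45 measured contractile, coupling and synapse genes with a listed promoter (40.0%) and in 11 of the 25 of them that were higher (44.0%), against 10.6% of all 5748 measured genes with a promoter and 12.8% of all 27025 promoters. Of the genes called higher as a whole 16.6% held it, and of those called lower 17.9%. Chrng and Chrna1 each hold 2 copies, and the first was 6.43-fold higher on day 3 while the second read 3874 against 3211. In the following actin promoters the capitals mark a CArG box, the site of the serum response factor Srf, found in 5 of the 45 genes (11.1%), in 2 of the 25 that were higher (8.00%), in 1.29% of all measured genes and in 1.40% of all promoters.
Acta1: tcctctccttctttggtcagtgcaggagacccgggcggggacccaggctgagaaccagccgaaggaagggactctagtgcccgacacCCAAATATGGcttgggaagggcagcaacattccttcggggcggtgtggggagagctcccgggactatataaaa
Actc1: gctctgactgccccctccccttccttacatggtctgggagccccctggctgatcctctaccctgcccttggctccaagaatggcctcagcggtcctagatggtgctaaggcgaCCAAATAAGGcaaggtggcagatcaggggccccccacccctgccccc
They lie at chr8:123894776-123894935 (- strand) and chr2:114052876-114053035 (- strand). Srf itself read 383 on day 3, against 288 on day 2.

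At the membrane, 4 of 15 measured genes of the dystrophin complex and of caveolae were higher with none lower (median 0.52). At a floor of 100, 2 were higher, and with quantile normalisation or a floor of 20, 1 was lower. The complex ties the cytoskeleton to laminin outside the fibre. Sgca, alpha-sarcoglycan, read 158 on day 3 but was below the floor on day 2 (at least 3.67-fold), as was Cav3, the caveolin of muscle, with 122 on day 3 (at least 2.85-fold); both calls ended at a floor of 100. Sspn, sarcospan, read 289 against 107, and Ank1, an ankyrin of which muscle makes a short form, 478 against 156. Dmd, dystrophin, was under the floor on both days (22.9 on day 3 and 27.0 on day 2). The dystroglycan gene Dag1 read 2981 against 1935 and was not called by this, its brightest probe set, but its 4 probe sets ran from 0.62 to 1.25 on the log2 scale and 2 of them passed 2-fold.

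Fusion and adhesion genes had 2 of 21 measured members higher and 1 lower (median 0.35). The higher share of 9.52% was not far from the 6.69% of all measured genes. Mymk, myomaker, which myoblasts need to fuse, read 1017 on day 3, against 54.0 on day 2 (18.8-fold higher), and Cdh15, M-cadherin, 1606 against 350.0 (4.59-fold). Nrcam, a neuronal adhesion molecule, read 435 against 975 (2.24-fold lower). Ncam1 (912 against 566), Vcam1 (1338 against 1471) and Cdh2, N-cadherin (676 against 587), were not called by their brightest probe sets. A further probe set passed 2-fold for Ncam1 (1.45 on the log2 scale) and for Cdh2 (1.45).

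Of 19 measured myogenic regulators, 2 were higher with none lower (median 0.65). The higher share of 10.5% was not far from the 6.69% of all measured genes. Without shared probe sets 4 were higher, and at a floor of 100 it was 1. Myog read 3876 on day 3, against 261 on day 2 (14.9-fold higher), and Mef2c, a partner of the myogenic factors, 122 on day 3 and under the floor on day 2 (at least 2.84-fold, a call that ended at a floor of 100). Myod1, which activates Myog, read 1405 against 2272 and was not called. Myf5 read 469 against 298 and Mef2d 278 against 152. Mef2a read 1547 against 957 by its brightest probe set and was not called, but its other 3 probe sets all passed 2-fold (up to 1.55 on the log2 scale), and it was called higher with the median over probe sets. Over the 4 arrays, Myog read 261, 3876, 1839 and 1835 on days 2, 3, 5 and 14, and Myod1 2272, 1405, 500.2 and 935. Myog was thus highest on day 3 and Myod1 on day 2. Pax7 read 59.4 on day 3 but was below the floor on day 2, and Myf6, the fibre-stage member of the family, was under it on both days. The Id proteins, which hold E proteins away from MyoD, were not called: Id1 read 246 against 223, Id2 319 against 372 and Id3 688 against 564. Of the 14 measured Id and repressor genes 3 were higher with none lower (median 0.57; 1 as deposited and 5 at a floor of 20), led by Heyl, a Notch target, with 208 on day 3 and under the floor on day 2 (at least 4.84-fold). The class IIa deacetylase Hdac5 read 282 against 131, a call that ended as deposited and with quantile normalisation.

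**Figure D3:**
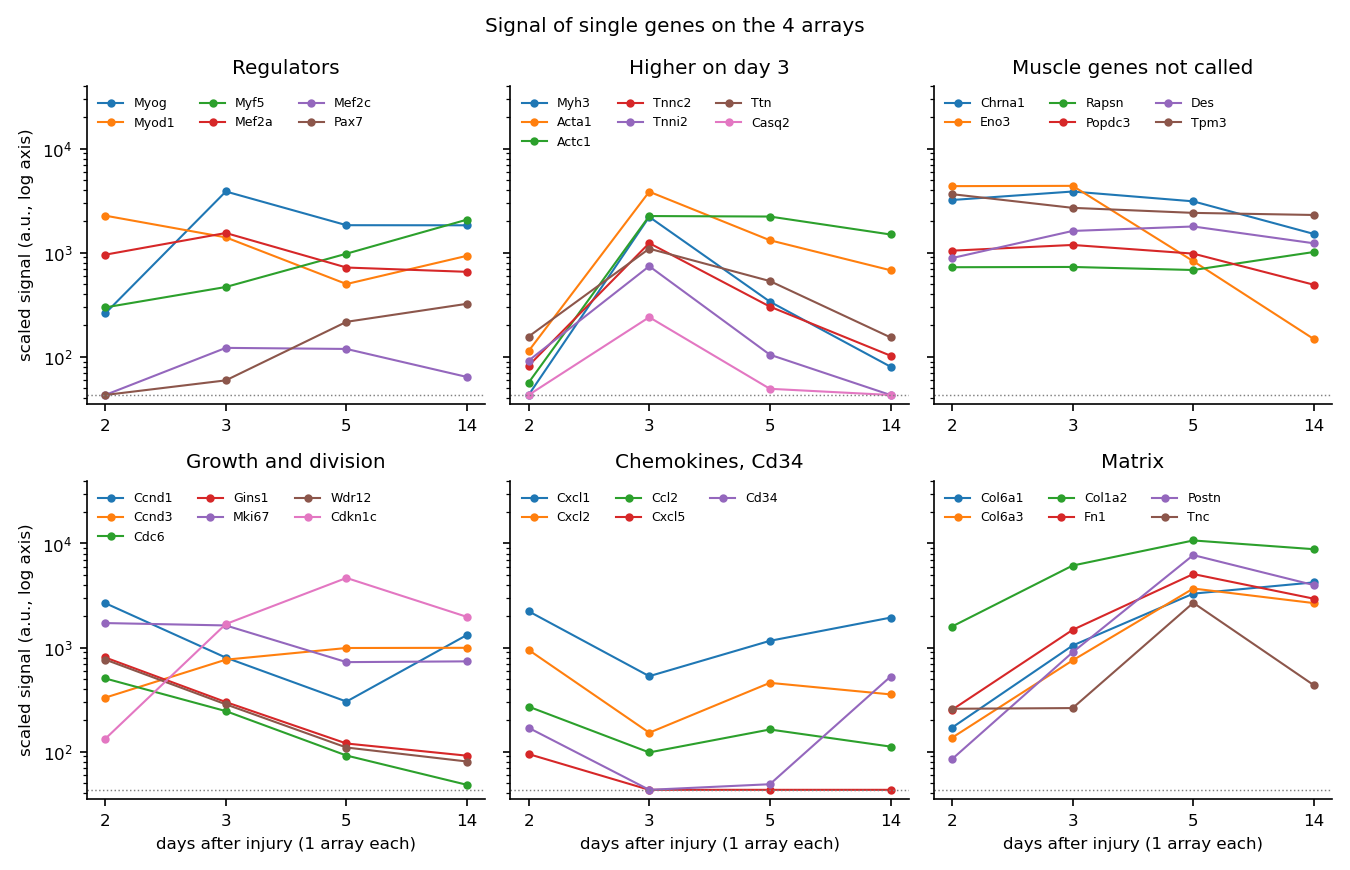
Scaled signal (vertical, log axis) of single genes on days 2, 3, 5 and 14 after injury (horizontal, evenly spaced and not to scale), with 1 array a day and values under the dotted floor drawn at it. Myog and the genes of the panel of higher contractile genes are highest on day 3, except that Actc1 is nearly level with day 5. Tpm3, drawn among the muscle genes not called, is lower on day 3 than on day 2. Cdc6, Gins1 and Wdr12 are highest on day 2 and the matrix genes later.

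Among inhibitors of the cell cycle, 6 of 22 measured genes were higher with none lower (median 0.41). The count was 2 with quantile normalisation, 3 as deposited and 9 at a floor of 20, and the median was 0.18 at a floor of 100. Cdkn1c, which encodes p57, read 1683 on day 3, against 133 on day 2 (12.7-fold higher). Gadd45g, a stress-inducible arrest factor, read 752 against 199, and Rb1, the retinoblastoma protein, 263 against 122; the Rb1 call ended as deposited and with quantile normalisation. Cdkn1a, which encodes p21 and is a known MyoD target, read 3751 against 2363, and Cdkn1b, which encodes p27, 65.2 against 49.4, and neither was called. The D cyclins, which start the cycle, went apart. Ccnd1 read 801 on day 3, against 2673 on day 2 (3.34-fold lower, its 3 probe sets between -1.74 and -0.51 on the log2 scale), while Ccnd3, the D cyclin retained in differentiating myotubes, read 765 against 330.1 (2.32-fold higher). Ccnd2 read 70.3 against 51.2 and Myc 356 against 347, neither called. Of the 16 measured genes of the list of G1 cyclins, kinases and Myc, 1 was higher and 2 lower, the other lower one being the phosphatase Cdc25a with 167 against 340.0. These shares, 6.25% higher and 12.5% lower, stood beside 6.69% and 1.80% of all measured genes. The Cdc25a call ended with quantile normalisation and without a floor. The list median of -0.02 changed sign under 2 alternatives.

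Replication genes were lower as a list and rarely past 2-fold. Of 50 measured, 48 lay below zero, 5 were called lower with none higher and a list median (log2) of -0.43 against 0.06 for all measured genes. Gins1, a subunit of the replicative helicase, read 299.5 on day 3, against 803 on day 2, Dtl, an adaptor of the ligase that clears licensing factors, 156 against 371, and Cdc6, which loads the helicase, 245 against 505. Orc1, of the origin recognition complex, lay under the floor on day 3 and read 103 on day 2 (at least 2.41-fold lower). The Cdc6 call ended with quantile normalisation and without a floor, and the Orc1 call at a floor of 100. As deposited, 10 of the list were lower. Over the 4 arrays, 47 of the 50 genes had their highest signal on day 2. The G2 and mitosis list was lower by less: 50 of 58 lay below zero, 1 was lower (6 as deposited, none with quantile normalisation), 1 was higher and the median was -0.29. The lower share of 1.72% was close to the 1.80% of all measured genes. Cdk1, the mitotic kinase, read 1300.3 against 2483, and Plk4, which starts centriole copying, 546 against 1139 (a call that ended with quantile normalisation, with the median over probe sets and without shared probe sets). Cdc20 read 1453 against 2303 by its brightest probe set and was not called. Its other probe sets passed 2-fold lower (-1.05 and -2.23 on the log2 scale). Mki67, the proliferation antigen, read 1631 against 1719.6 and Cdk4 2727 against 3102. Transcripts of dividing cells were thus still far above the floor on day 3.
The next promoter is shown for its E2F site (capitals), the letters TTTCCCGC or TTTGGCGC on either strand, which E2F factors bind in S phase genes.
Cdc6: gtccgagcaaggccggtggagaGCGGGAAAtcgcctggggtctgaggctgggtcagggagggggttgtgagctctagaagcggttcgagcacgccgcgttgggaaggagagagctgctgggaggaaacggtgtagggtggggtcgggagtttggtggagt
It lies at chr11:98907991-98908150 (+ strand). Such a site was found in 7 of 42 measured replication genes with a promoter (16.7%), in 3.17% of all measured genes, in 1.35% of all promoters and in none of the 45 contractile, coupling and synapse genes. Of all genes called lower, 3 of 106 with a promoter held it (2.83%), and of those called higher 3 of 367 (0.82%). The share among lower genes was thus not above that of all measured genes.

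Growth genes were lower beside them. Ribosome biogenesis had 10 of 50 measured genes lower with none higher, 48 below zero and a median of -0.56. Wdr12, a factor of large subunit maturation, read 285 on day 3, against 767 on day 2, Noc4l, of the small subunit path, 219 against 579, and Rcl1 229 against 613. Utp20, a component of the small subunit processome, read 519 against 1117. Genes of nucleotide, polyamine and one-carbon synthesis had a median of -0.61, with 3 of 25 lower (6 as deposited) and none higher. Shmt1, which passes one-carbon units from serine to folate, read 354 against 744 (4 probe sets between -1.57 and -1.07 on the log2 scale), Adsl of purine synthesis 263 against 537, and Umps of pyrimidine synthesis 312 against 630.4. With quantile normalisation all 3 calls ended and none of the list was lower. Amino acid transport and tRNA charging had 1 of 24 genes lower, the glutamine carrier Slc1a5 with 205 against 416, and a median of -0.23. The lower share of 4.17% rests on this 1 call and stood beside 1.80% of all measured genes. The Slc1a5 call also ended with quantile normalisation. The ribosomal proteins themselves had a median of 0.00 over 35 genes (-0.18 as deposited), with 1 higher and 1 lower. Each share was 2.86%, beside 6.69% higher and 1.80% lower of all measured genes. Factors that make ribosomes and nucleotides were thus lower as lists, while the protein parts of the ribosome stayed near zero except with the arrays as deposited.

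**Figure D4:**
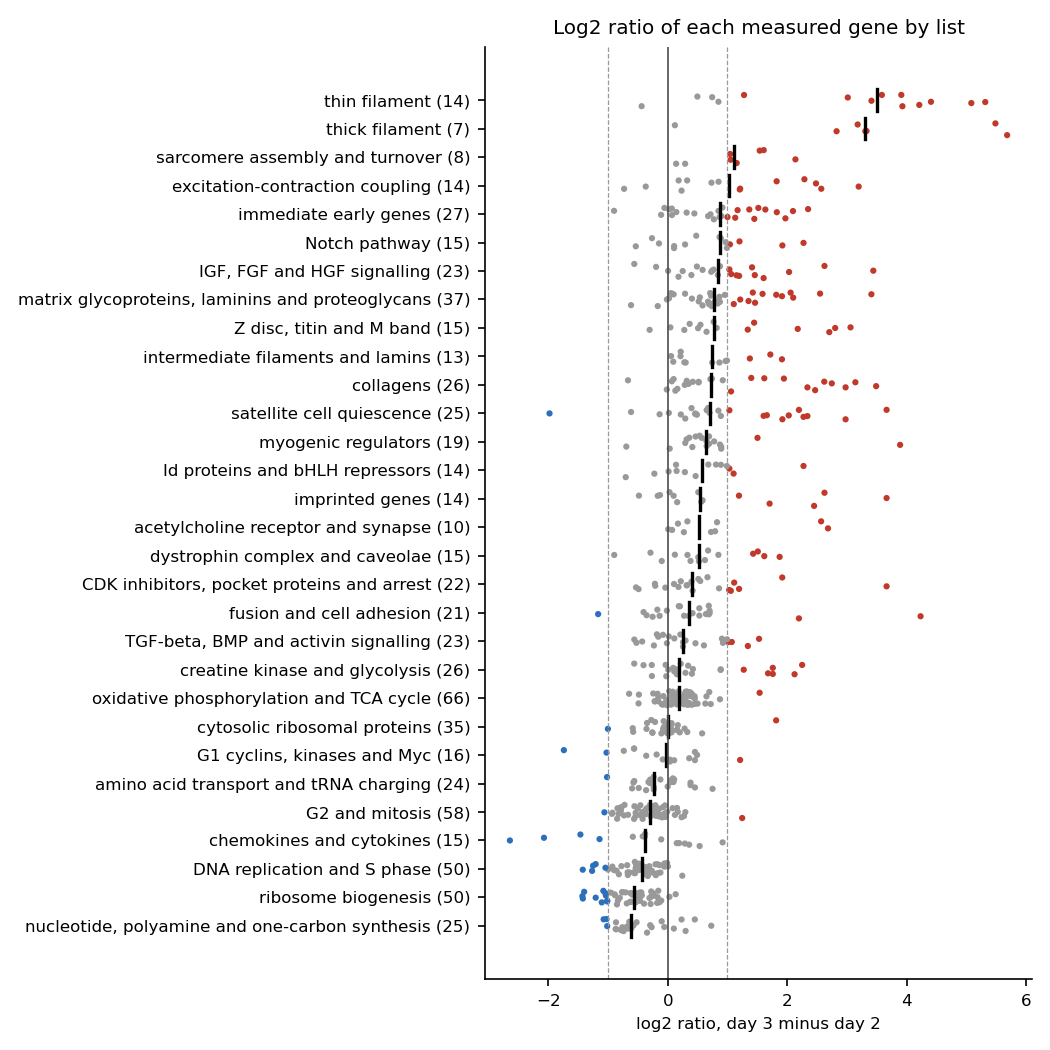
Log2 ratio, day 3 minus day 2 (horizontal), of each measured gene (points) in each list (rows, with the number of measured genes); red points are at least 2-fold higher, blue points at least 2-fold lower, dashed lines mark those limits and black bars the list medians. The thin and thick filament medians of 3.50 and 3.31 stand far right of the rest, and those of ribosome biogenesis at -0.56 and nucleotide synthesis at -0.61 stand at the left.

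Chemokines held the largest decrease of all called genes, that of Cxcl2 (6.25-fold lower). Of 15 measured chemokines and cytokines, 4 were lower with none higher (median -0.38). At a floor of 20, which let 23 be measured, 5 were lower and 3 higher with a median of -0.11, and without a floor 1 was higher. Cxcl2 and Cxcl1, which draw neutrophils, read 152 and 531 on day 3, against 949.6 and 2233 on day 2. Ccl2, which draws monocytes, read 98.3 against 271, and Cxcl5 lay under the floor on day 3 and read 94.8 on day 2 (at least 2.21-fold lower, not measured at a floor of 100). Il6 (139 against 125) and the cytokine receptor Tnfrsf12a (2002 against 2602) were not called. Cxcl1 and Cxcl2 lie near each other on the same chromosome, and their promoters are shown for the match to the NF-kappaB site that both hold (capitals).
Cxcl1: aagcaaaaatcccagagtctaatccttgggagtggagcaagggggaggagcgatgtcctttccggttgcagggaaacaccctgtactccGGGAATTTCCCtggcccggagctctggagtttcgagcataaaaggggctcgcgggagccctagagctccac
Cxcl2: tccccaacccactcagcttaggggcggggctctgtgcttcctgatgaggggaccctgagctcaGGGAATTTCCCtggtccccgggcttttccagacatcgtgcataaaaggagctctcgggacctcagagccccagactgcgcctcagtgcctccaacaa
They lie at chr5:90891085-90891244 (+ strand) and chr5:90903739-90903898 (+ strand). The search allowed more than 1 base at several positions of the site, so a match need not have the capitalised letters, which span overlapping matches. Such a match was found in 6 of 12 measured chemokine and cytokine genes with a promoter (50.0%), among them both of the lower ones. Of all measured genes 4.18% held a match, and of all promoters 3.75%. Of the genes called lower as a whole 7.55% held it, and of those called higher 4.09%. Cd34, a surface sialomucin, lay under the floor on day 3 and read 169 on day 2 (at least 3.94-fold lower, a call that ended at a floor of 100).

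Immediate early genes, which respond within minutes to growth factors and to cell dissociation, had 11 higher of 27 measured with none lower (median 0.87), and 1 lower as deposited. Fos read 3539 on day 3, against 1139 on day 2, Egr1 2398 against 469.9, and Nr4a1, an orphan nuclear receptor, 479.6 against 135. Ier3 read 569 against 1062 and was not called. In 25 of the 27 the highest signal of the 4 arrays was on day 14, so day 3 was not a peak of this response.

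Growth factor signalling had 10 higher of 23 measured with none lower (median 0.84). The ligands Igf2 and Igf1, which drive myoblast growth and differentiation, were both called higher: Igf2 read 478 on day 3, against 77.4 on day 2, and Igf1 114 on day 3 and under the floor on day 2 (at least 2.66-fold, a call that ended at a floor of 100). Among binding proteins, Igfbp5 read 1734 against 159 (10.9-fold higher, by a probe set shared between transcripts) and Igfbp2 415 against 151, while Igfbp3 read 179.8 against 265 and was not called. Among receptors, Igf2r, which clears Igf2, read 178 against 43.5 (a call that ended at a floor of 100), and Fgfr4, the fibroblast growth factor receptor of myoblasts, 958 against 315. Igfbp2 was highest on day 3 of all arrays (113 on day 5 and under the floor on day 14), whereas Igf2 reached 3605 on day 5 and 4220.0 on day 14.

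Matrix genes were higher too. Of 26 measured collagens and collagen-modifying enzymes, 11 were higher with none lower (median 0.73), and of 37 glycoproteins, laminins and proteoglycans, 12 were higher with none lower (median 0.78). Col6a1, Col6a2 and Col6a3, which encode chains of collagen VI, a microfibril around muscle cells, were higher. Col6a1 read 1046 on day 3, against 169.9 on day 2, Col6a2 864 against 97.8, and Col6a3 753 against 136. The fibrillar Col1a2 read 6138 against 1592, and Col18a1, of basement membranes, 805 against 71.6. Fn1, fibronectin, read 1479 against 252, and the proteoglycan Bgn, biglycan, 1089 against 262. Serpinh1, the collagen chaperone (2102 against 1686), and P4ha1, a prolyl hydroxylase (265 against 253), were not called. The highest of the 4 arrays was day 5 or day 14 for 25 of the 26 collagen genes and 35 of the 37 others, so day 3 was not their peak.

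Some markers of fibroblasts, mural cells and macrophages were also higher on day 3. Of 23 fibroblast markers named on the array 14 were measured, and 5 of them were higher with none lower; their summed signal was 9296 on day 3, against 3653 on day 2. Of these 5, Postn, Col1a1 and Col3a1 are themselves matrix genes. Thy1 read 207 against 69.3 and Postn, a matrix protein, 900.4 against 84.6, but Dcn read 541 against 505, and the defining Pdgfra, Cd248, Pi16, Clec3b and Dpp4 were under the floor on both days. Of 13 mural and smooth muscle markers 8 were measured, and 5 were higher with none lower, with a summed signal of 6023 against 1855. Acta2, smooth muscle actin, which early myotubes also make, read 3596 against 750.0, while Myh11 and Cnn1 were under the floor on both days. This list also holds Des, counted above as a myogenic marker, which read 1619.5 against 888 and was not called. Acta2 and Des together made up most of the sum on both days, so the sums are not specific to mural cells. Of 22 macrophage markers 10 were measured, and 5 were higher with none lower, with a summed signal of 1578 against 440.0. Lyz1, a lysozyme whose probes may also read its near-identical copy Lyz2, read 510.3 against 88.3 and Csf1r 91.0 on day 3 and under the floor on day 2, with Ptprc, Itgam, C1qa and Tyrobp under the floor on both days. Of 17 endothelial markers 2 were measured and none was called, with Pecam1, Cdh5 and Kdr under the floor on both days. At a floor of 100 the higher markers numbered 1 for macrophages and 2 for mural cells, and without shared probe sets, which drops Lyz1 and Acta2, 3 for each; at a floor of 20 they numbered 10 for macrophages, 7 for mural cells and 9 for fibroblasts. The part of these cells in the matrix, chemokine and immediate early results was not tested.

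**Figure D5:**
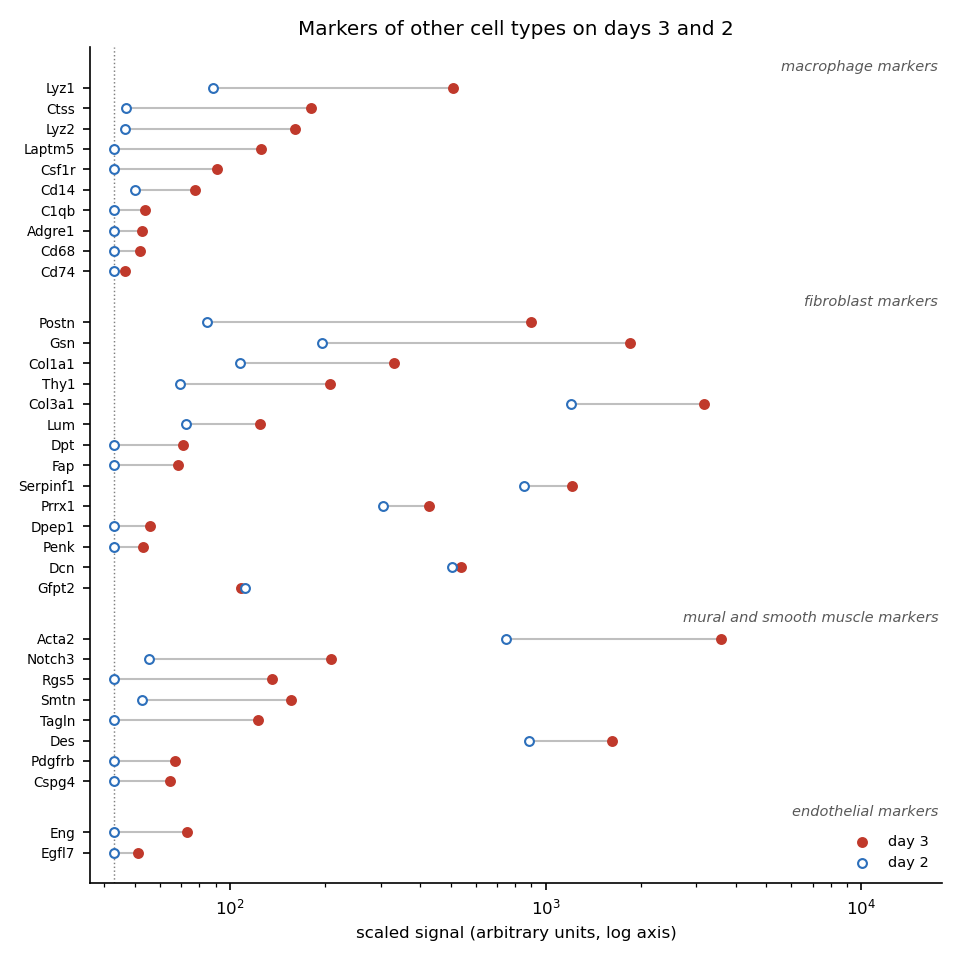
Scaled signal (horizontal, log axis) of the measured markers of macrophages, fibroblasts, mural and endothelial cells on day 3 (filled red) and day 2 (open blue), with the floor dotted and 1 array behind each point. Macrophage markers lie between the floor and 510.3 on day 3 and no marker of the figure other than Gfpt2 (109 against 111) is lower on day 3.

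Of 26 measured genes of the creatine kinase and glycolysis list, 6 were higher with none lower (2 higher at a floor of 100), and the median was 0.19, or 0.03 with the arrays as deposited. Ckm, the muscle creatine kinase that buffers ATP, read 146 on day 3 but was below the floor on day 2 (at least 3.39-fold), as were Pgam2, the muscle phosphoglycerate mutase (146 on day 3, at least 3.39-fold), and Ak1, adenylate kinase (138 on day 3, at least 3.21-fold); these 3 calls ended at a floor of 100. Ckb, the brain-type kinase that myoblasts use, read 461 against 96.9 (4.76-fold higher). Eno3, muscle enolase, read 4392 against 4364, and of the glycolytic enzymes common to most cells Gapdh and Ldha were near equal on both days, with Gapdh at 7887 against 8078 and Ldha at 6308 against 6413. Of 66 oxidative phosphorylation and tricarboxylic acid cycle genes, 1 was higher (Chchd10, 621 against 213, by a probe set shared between transcripts) with none lower. The median was 0.18, or 0.00 as deposited. The higher share of 1.52% was under the 6.69% of all measured genes. Most genes of both lists were thus not called.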

How the data were processed

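RNA of the purified cells was labelled by a small-sample assay, per the labels' protocols, and hybridised to Affymetrix mouse 430A arrays. The deposited values are intensity signals, linear, with 1 value for each probe set of each array, made by the authors with MAS5, per the submitters' processing notes; the sources at hand do not give its settings. Arrays were brought to a shared 2% trimmed mean (factors 1.13 for day 3 and 0.997 for day 2), values under the pooled median, 43.0, were set to that floor, and log2 signals were subtracted, day 3 minus day 2. A gene at the floor on both days was not measured, and where only 1 day was at the floor the fold is given as "at least". The platform annotation gave 1 symbol for 20393 of 22690 probe sets. The probe set of highest mean signal stood for its gene. Single signals are compared between arrays for 1 gene and not between genes. For marker lists the signals of the genes were also summed within a day, so that brighter genes weigh more in these sums.

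No day has a replicate, so no test was made, and the number of arrays limits the precision. Each list is described by its calls and median. The shares called and the median of all measured genes are given once, near the start, and repeated for some lists only. Of 1124 list entries 1002 were matched; the others were not analysed here. Names were taken from the 15 largest increases and 15 largest decreases, up to 8 called members of each list, and a set of key genes. Not all genes of this set are named in the text. List members that were not called were picked after their values were seen. The genes, lists and motifs were chosen with earlier results of these data known. Promoter motifs were searched in 250 bases before the first listed start of each gene. Alternatives were the arrays as deposited, quantile normalisation, centring on the median gene, floors of 20 and 100, a pseudocount of 16 without a floor, the median over probe sets, leaving out probe sets shared between transcripts, and calls at 1.5-fold and 3-fold. The calling was tested on simulated data. Python 3.11.15, pandas 2.3.3 and numpy 2.4.6 were used.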

Additional observations from a re-analysis of the deposited data

How the results depend on the processing

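The share of higher calls was 78.8% in the main setting. It was 52.6% as deposited (with 288 lower genes), 70.4% with quantile normalisation, 86.0% at a floor of 20 (884 higher) and also 86.0% without a floor, 71.2% at a floor of 100 (235 higher), 66.2% at 1.5-fold (1243 higher and 636 lower) and 93.0% at 3-fold (159 higher and 12 lower). The thick filament median was 3.93 at a floor of 20 and 2.10 at a floor of 100, and at that floor the thin filament median was 2.94 and that of the collagens 1.12. Of 270 list medians under the alternatives 255 moved by less than the spread used and 15 by more; the only lists whose median changed sign were those of ribosomal proteins and of G1 cyclins, kinases and Myc. The set from which names were taken held 159 called genes, not all of them named in the text. Of these, 96 were called in every alternative of scaling, floor and probe sets. The other 63 lost the call in at least 1, most often at a floor of 100 (38 genes, 8 of them no longer measured) and with quantile normalisation (22 genes). No gene of that set changed sign past the threshold. The cause of these moves was not tested, beyond what each alternative changes by construction. Genes near the floor carry bounds only, and 850 of the 6991 measured genes have 1 side there. That side was mostly day 2: 6874 genes lay above the floor on day 3, against 6258 on day 2. The scaled median over all probe sets was 41.7 on day 3 and 29.5 on day 2. The part of this offset between the arrays in the share of higher calls was not tested. No paired analysis was possible because each day has 1 array, and no array could be left out for the same reason.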

Other observations

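Nuclear and filament scaffold genes had 3 higher of 13 measured, with none lower (median 0.75 on the log2 scale; 5 higher at a floor of 20 or without one). Nes, nestin, an intermediate filament of regenerating muscle, read 1448 on day 3, against 440.0 on day 2. Syne1, which holds nuclei in place in muscle fibres, read 318 against 84.4, and the desmosomal protein Pkp2 164 against 63.2. Des, desmin, read 1619.5 against 888 and Vim, vimentin, 11355 against 9789.5, neither called. The simple keratins Krt8 (720.4 against 429.5) and Krt18 (484 against 453) were above the floor on both days.

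Imprinted genes had 5 higher of 14 measured, with none lower (median 0.54). Beside Cdkn1c and Igf2, Mest read 2188 on day 3, against 399.9 on day 2, Impact 257 against 112 and the long RNA Meg3 146 against 44.6, with the second Meg3 probe set at 0.29 on the log2 scale. Plagl1, a zinc finger protein of the same network, read 623 against 558 and then 5753 on day 5. Of 15 Notch pathway genes 4 were higher (median 0.87; 2 with the median over probe sets and 7 at a floor of 20), with the receptor Notch1 at 583 against 283 and the glycosyltransferase Rfng at 192 against 83.3, and the ligand Dll1 was not called at 516 against 370.2. Of 23 genes of TGF-beta, BMP and activin signalling 4 were higher (median 0.26; 2 higher and a median of 0.07 as deposited; 2 lower at a floor of 20), among them Fstl1, a follistatin-like secreted protein, with 496 against 196 and Ltbp3, which binds latent TGF-beta, with 449 against 156. The calls of Pkp2, Meg3 and Rfng ended at a floor of 100, those of Impact and Rfng with quantile normalisation and that of Notch1 with the arrays as deposited.

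Of 25 measured genes that mark quiescent satellite cells, 10 were higher on day 3 and 1, Cd34, was lower (median 0.70); Cdkn1c, Heyl, Cdh15, Fgfr4 and the collagen V genes Col5a1 and Col5a3 among them also stand in lists given above. Gpx3, an extracellular glutathione peroxidase, read 511 against 125. Of 7 Schwann cell markers 3 were measured and none was called (summed signal 429 against 308).

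Single genes also stood apart from their lists. Rpl22 read 5914 on day 3, against 1679.5 on day 2 (3.52-fold higher, second probe set 0.98 on the log2 scale), in a ribosomal protein list with a median of 0.00. Abcb1b, a drug efflux pump, read 51.9 against 225 (4.33-fold lower), and Donson, a replication fork protein, 166 against 472 (2.84-fold lower). Hoxa9, a homeobox factor, read 437 against 1364 (3.12-fold lower). Foxm1, a mitotic transcription factor, read 105 against 44.2 and was the 1 higher gene of the mitosis list, with another probe set at 0.24; its call ended at a floor of 100, with quantile normalisation and with the median over probe sets. In all, 7 called genes had probe sets more than 2 log2 units apart: Dclk1, Gsn, Mkrn1, Mxd4, Myl4, Pdlim7 and Supt16. Supt16, a histone chaperone, read 908 against 394, but its probe sets ran from -0.92 to 1.21, so it has no settled direction. Xist read 722 against 569, and the Y-linked Eif2s3y, Kdm5d and Uty were under the floor on both days.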
